A study of Homo sapiens with 4 samples.

Results

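The genes that present peptides to T cells and show class I molecules to natural killer (NK) cells were examined in U266, an IgE-secreting human multiple myeloma cell line, after 24 h with or without trabectedin, a DNA minor groove binder of marine origin. The set held 9 genes, namely the heavy chains HLA-B, HLA-C, HLA-E, HLA-F and HLA-G, the light chain B2M, and the peptide loading genes TAP1, TAP2 and TAPBP. All transcript clusters (groups of probes that the array design assigns to a gene) that carried the symbol of 1 of these genes and no other were used, which gave 56 of the 23781 clusters with 1 symbol. Of 70523 features on the array, the others carried several symbols or none. The array design holds clusters for the primary chromosomes and for alternate MHC haplotypes, the other sequenced versions of this region of chromosome 6, so that a gene can have up to 8 clusters. RNA from 2 control and 2 trabectedin samples was hybridized to Affymetrix Human Transcriptome Arrays. The controls are called untreated in the labels, while the protocol gives them PBS, and the methods dissolve trabectedin in DMSO. The labels give a dose of 2.5 nM and the treatment protocol gives 2.5 μM. The methods take the cells from 2 experiments with 1 cell line and do not say whether a replicate number marks one of them in both groups.

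Class I molecules are built from a polymorphic or conserved heavy chain, the light chain β2-microglobulin and a short peptide. Peptides cut by the proteasome are carried into the endoplasmic reticulum (ER) by the transporter TAP1-TAP2, and tapasin, encoded by TAPBP, tethers empty class I molecules to that transporter while chaperones hold them ready. Class I molecules on a target cell are read by T cell receptors and also by inhibitory receptors of NK cells, which bears on this study because NK killing of myeloma cells was among its questions. The promoters of these genes are known to carry an enhancer A element bound by NF-κB, an interferon-stimulated response element (ISRE) bound by interferon regulatory factors, and an SXY module that includes an inverted CCAAT or Y box and recruits the transactivator NLRC5.

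Promoter stretches are shown because these elements are the textbook basis for a common regulation of the set. In the RefSeq promoters of GRCh38.p14, which run from 250 bases before to 50 bases after a start, 8 of the 9 genes had an entry, and HLA-E had none. Motifs were searched on both strands by their letters, GGGGATTC for enhancer A, GGGACTTTC for a κB site, GAAANNGAA for an ISRE, AGTGAAAC for the class I form of the ISRE and CCAATCAG for a CCAAT box in either orientation. The first lines show enhancer A and, for HLA-B and HLA-C, the class I ISRE after it, in capitals, read 5′ to 3′ on the strand of the gene.
HLA-B, chr6:31357327-31357356, minus strand: GGGGATTCcccactcccctgaGTTTCACTt
HLA-C, chr6:31272236-31272265, minus strand: GGGGATTCtccactcccctgaGTTTCACTt
HLA-G, chr6:29827658-29827685, plus strand: gcgttGGGGATTCtctcctccttctcct
The enhancer A letters began at -177, -173 and -162 bases from the start of HLA-B, HLA-C and HLA-G, and 0.888% of all 35116 promoters held them. The class I ISRE letters stood in the promoters of HLA-B and HLA-C, and in 0.834% of all promoters. The ISRE letters, in capitals in the next lines, stood in 5 of the genes and in 8.11% of all promoters, and no gene of the set held both forms of the ISRE.
HLA-F, chr6:29723267-29723293, plus strand: tctccccagagtTTCTCTTTCtctccc
B2M, chr15:44711367-44711389, plus strand: ctctaaGAAAAGGAAACTGAAaa
TAP1, chr6:32853821-32853843, minus strand: gccgctTTCGATTTCGCTTTCcc
TAP2, chr6:32838781-32838803, minus strand: ggaagcGAAAGCGAAagctgccc
TAPBP, chr6:33314082-33314104, minus strand: ttggagGAAAGTGAAAGTGAAag
In B2M, TAP1 and TAPBP the capitals cover a pair of overlapping matches. The CCAAT box letters, in capitals below, began between -57 and -52 bases from the start in 5 of the genes and were found in 3.97% of all promoters, and the κB letters were found in TAP1 and B2M and in 0.387% of all promoters.
HLA-B, chr6:31357220-31357243, minus strand: tagagaagCCAATCAGcgtcgccg
HLA-C, chr6:31272133-31272156, minus strand: tagagaagCCAATCAGcgtctccg
HLA-F, chr6:29723369-29723392, plus strand: tagagaagCCAATCAGtgtcgccg
HLA-G, chr6:29827761-29827784, plus strand: tagagaagCCAATCAGcgtcgccg
B2M, chr15:44711457-44711480, plus strand: gccttgtcCTGATTGGctgggcac
The heavy chain genes shown shared the bases that lead into the CCAAT box, which reads CCAAT on the strand of the gene. Only B2M held it inverted, the orientation given above for the Y box. Whether any of these boxes belongs to an SXY module was not tested. These matches describe letters, and binding was not measured.

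Trabectedin-treated cells had a slightly higher mean of all 9 genes than control cells, and no gene of the set passed the test. By the cluster on the primary chromosomes, the log2 fold changes ran from 0.10 for TAPBP to 0.46 for HLA-E, with a median of 0.25, whereas the median over all tested clusters was 0.10. This direction turned for 7 of the 9 genes when the arrays were scaled to 64 clusters with symbols of ribosomal protein genes. This scaling moved the median of all clusters from 0.10 to -0.20. The comparison was made by limma on 2 arrays a group, with p-values adjusted over all 23781 clusters by the method of Benjamini and Hochberg, and 0 of the 56 clusters passed at an adjusted p under 0.05, as did 0% of all clusters in either direction. An unadjusted p under 0.05 was obtained for 6 of the 56 clusters, all of HLA-G and all higher with trabectedin, against 7.3% of all clusters that were higher and 6.39% that were lower at this p. This count depended on the fit. With the replicate number added to limma as a block, 28 of the 56 clusters were at this p, as were 6016 of all 23781 clusters in either direction. No cluster of the set differed by 1.5-fold or more, while 2.8% of all clusters were higher and 4.44% lower by that much.

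Since 71.6% of all clusters had a higher mean with trabectedin, the positive sign of all 56 clusters stood on a background that leaned the same way. Both trabectedin arrays lay above both control arrays in 28 of the 56 clusters and in 5 of the 9 primary clusters, against 36.2% of all clusters, and 13% of all clusters had both trabectedin arrays below both controls. The 56 clusters are not separate measurements, because 28 of them shared all 4 values with another cluster of the gene and only 39 different sets of values occurred. The heavy chain genes and their pseudogenes resemble each other in sequence, so that a probe may also bind the transcript of another class I gene, and its part in the values was not tested. In these bulk samples fewer cells of a kind and less RNA per cell cannot be told apart. With 2 arrays against 2, a two-sided exact permutation test cannot go below p = 0.333.

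Among the classical heavy chains, which present peptides to CD8+ T cells, HLA-B had a log2 value of 12.42 and 12.46 in the control arrays and 12.75 and 12.63 in the trabectedin arrays. The lower treated array thus stood above both controls, with a log2 fold change of 0.25 (limma adjusted p = 0.415, standard error 0.11). HLA-C, whose products are the main ligands of the KIR family of NK receptors, measured 10.59 and 10.70 in control and 10.89 and 10.87 with trabectedin. Its groups did not overlap either, and the log2 fold change was 0.23 (adjusted p = 0.443, standard error 0.11). In fold terms the group means differed by 1.19 for HLA-B and 1.17 for HLA-C, and both 95% intervals of the log2 fold change, -0.04 to 0.55 and -0.06 to 0.52, ended below 1.5-fold (0.58 on the log2 scale).

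**Figure D1:**
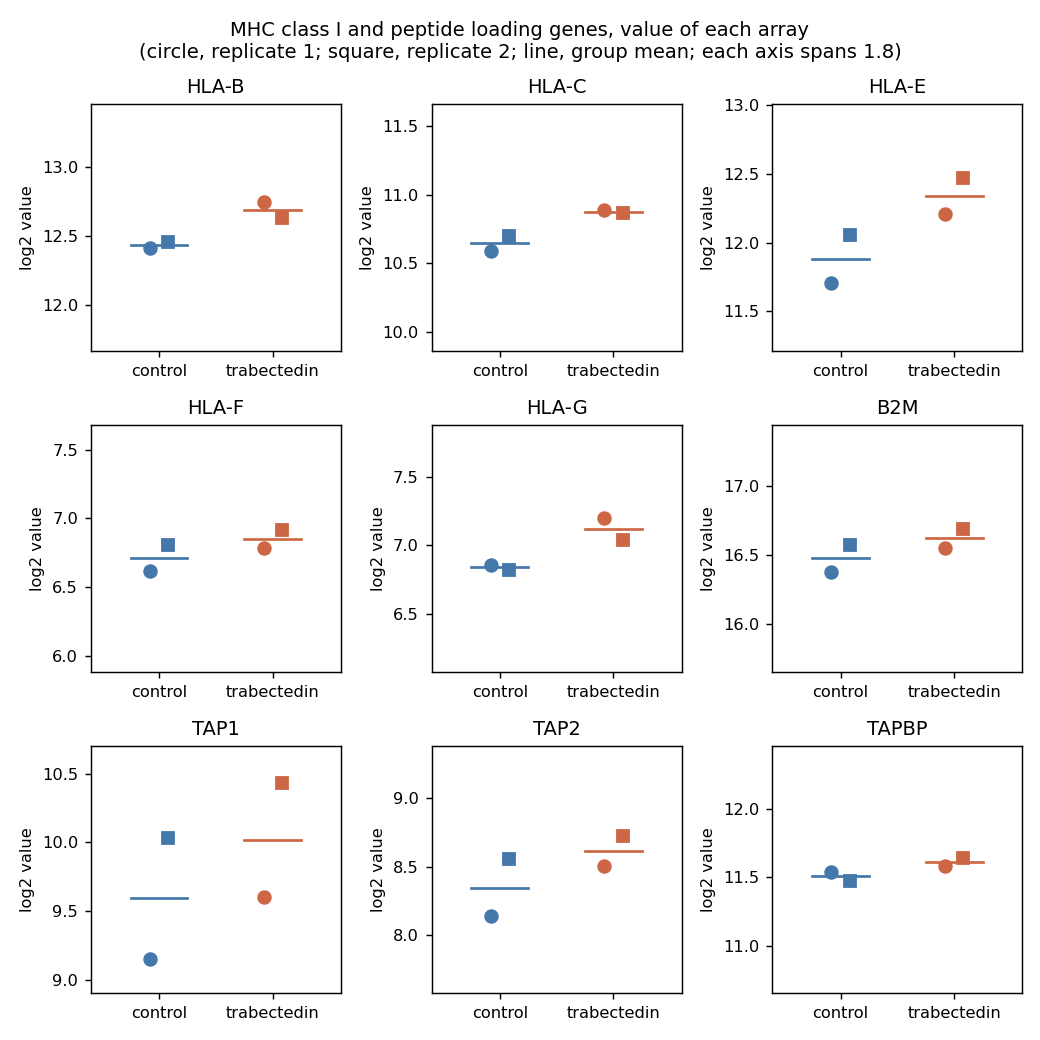
Log2 value of each array (y axis, all panels spanning the same number of units) in the control and trabectedin groups (x axis) for the primary chromosome cluster of the 9 genes. Circles are replicate 1, squares are replicate 2 and lines are group means of 2 arrays. The groups are apart in HLA-B, HLA-C, HLA-E, HLA-G and TAPBP and overlap in HLA-F, B2M, TAP1 and TAP2.

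Of the nonclassical heavy chains, HLA-E displays leader peptides of other class I molecules to the inhibitory NK receptor CD94/NKG2A. It showed the largest difference of the 9 primary clusters, with 11.71 and 12.06 in control against 12.21 and 12.47 with trabectedin. Both treated arrays were above both controls, although the gap to the nearer control array was smaller than the distance between the control arrays. The log2 fold change was 0.46 (standard error 0.18, 95% interval -0.0003 to 0.92), equal to 1.38-fold, with an unadjusted p of 0.0501 and an adjusted p of 0.365 by limma. Without control replicate 2 it was 0.64 and without control replicate 1 it was 0.29. Without trabectedin replicate 1 it was 0.59 and without trabectedin replicate 2 it was 0.33. Single arrays of either group thus decided whether HLA-E reached 1.5-fold. All 7 of its clusters reached it without control replicate 2, and 3 did without trabectedin replicate 1.

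HLA-G, a nonclassical heavy chain known from the placenta as a ligand of inhibitory receptors, had values of 6.86 and 6.82 in control and 7.20 and 7.04 with trabectedin. These groups were apart, and the primary cluster had a log2 fold change of 0.28 (adjusted p = 0.396, standard error 0.12). The 6 alternate haplotype clusters of HLA-G gave 0.33 to 0.36. In the fit without a block, these were the 6 clusters of the set with an unadjusted p under 0.05, their lowest adjusted p being 0.267. Their values were low, from 5.88 to 6.56, where the median over tested clusters was 5.81 to 5.93 in the 4 arrays. These 6 clusters hold 4 different sets of values, since those of the dbb and mcf haplotypes were equal and so were those of cox and qbl. HLA-F, which binds NK receptors also as an open form without peptide, measured 6.62 and 6.81 in control and 6.78 and 6.92 with trabectedin. Its groups overlapped, and the log2 fold change of 0.14 (adjusted p = 0.658, standard error 0.13) was smaller than the 0.19 between the control arrays.

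The light chain gene B2M, needed by every class I heavy chain for stable display at the surface, had values of 16.38 and 16.57 in control and of 16.55 and 16.69 with trabectedin. The groups overlapped, with a log2 fold change of 0.15 (standard error 0.13, 95% interval -0.19 to 0.49, adjusted p = 0.645). A difference of 1.5-fold lay outside this interval. B2M has no alternate haplotype cluster, because it lies on chromosome 15, away from the MHC.

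TAP1 and TAP2, the subunits of the peptide transporter, had the largest distances between the control arrays, and TAP1 also between the trabectedin arrays. TAP1 measured 9.15 and 10.03 in control and 9.61 and 10.43 with trabectedin, so that 1 array of each group was low and the other high. Its log2 fold change of 0.43 (adjusted p = 0.664, standard error 0.41) came with a 95% interval from -0.64 to 1.49. Leaving out control replicate 1 turned it to -0.017, leaving out control replicate 2 raised it to 0.87, and leaving out trabectedin replicate 1 or 2 gave 0.84 and 0.01. In the fit without a block, the size of the TAP1 difference therefore rested on which array was kept. By replicate number, TAP1 went from 9.15 to 9.61 and from 10.03 to 10.43. With that number as a block, limma gave TAP1 an unadjusted p of 0.00758 and an adjusted p of 0.0732. Whether the number marks an experiment is not stated. TAP2 had values of 8.14 and 8.55 in control and 8.51 and 8.72 with trabectedin, which overlapped, and a log2 fold change of 0.27 (adjusted p = 0.562, standard error 0.18). Without control replicate 1 the difference in TAP2 was 0.06, and without control replicate 2 it was 0.47. TAPBP, the bridge between the transporter and the heavy chain, measured 11.54 and 11.47 in control and 11.58 and 11.64 with trabectedin, for a log2 fold change of 0.10 (adjusted p = 0.686, standard error 0.11). Its groups did not overlap, by a margin of 0.04 between the nearest arrays of the primary cluster.

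**Figure D2:**
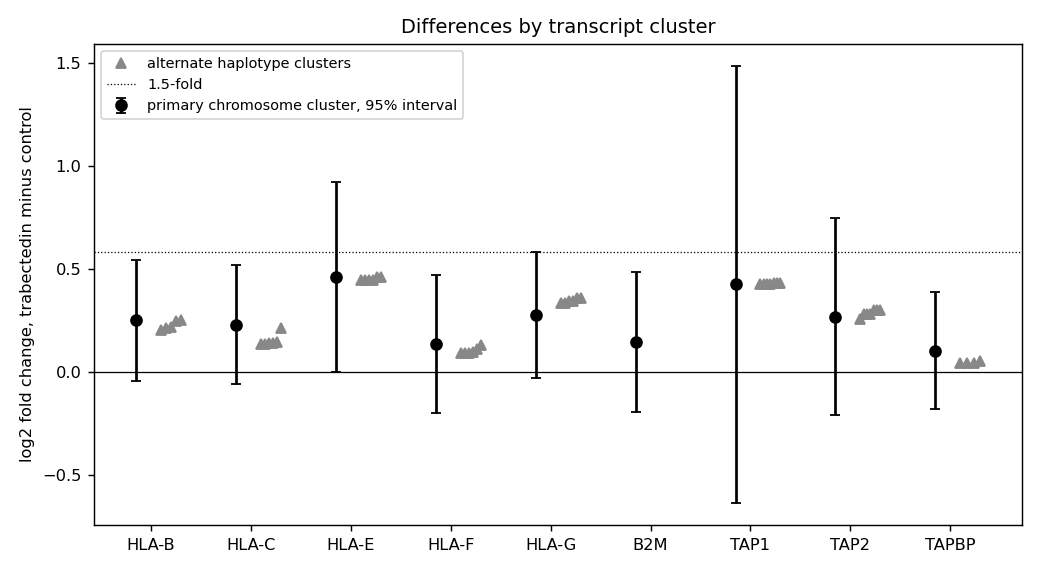
Log2 fold change, trabectedin minus control (y axis), for each transcript cluster of the 9 genes (x axis). Black circles are primary chromosome clusters with their 95% limma interval, grey triangles are alternate haplotype clusters and the dotted line marks 1.5-fold. All clusters lie between 0.04 and 0.46, below the dotted line, and the interval of TAP1 is the widest.

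The alternate haplotype clusters of a gene gave differences close to those of its primary cluster, the largest distance being 0.10 on the log2 scale, in HLA-C. HLA-B had 6 clusters with 6 different sets of values and log2 fold changes from 0.20 to 0.25, and the groups were apart in all 6, although the level of a cluster in a single array ran from 9.83 to 12.75. HLA-C had 7 clusters, all without overlap, of which the primary and cox clusters gave 0.23 and 0.21 and the other 5 gave about 0.14. HLA-E had only 2 sets of values over 7 clusters, with 0.45 and 0.46. The 7 clusters of HLA-F overlapped between the groups throughout and gave 0.09 to 0.14. For TAP1 the 8 clusters gave 0.43 each, and for TAP2 the 8 clusters gave 0.26 to 0.30, all with overlapping groups. TAPBP was the exception within a gene, as its primary cluster was apart between the groups while its 4 alternate clusters overlapped and gave 0.04 to 0.05. The sign of 3 genes depended on single arrays in some clusters. Without control replicate 1 the 8 clusters of TAP1 and 3 of HLA-F were negative, at -0.017 or closer to 0. TAPBP clusters went down to -0.021 without control replicate 2 and to -0.018 without trabectedin replicate 2.

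The distance between arrays of 1 group was set beside the difference between the group means. In 4 of the 9 primary clusters, namely HLA-F, B2M, TAP1 and TAP2, the control arrays differed from each other by more than the groups did. The distance between the control arrays ran from 0.04 in HLA-B to 0.89 in TAP1, and that between the trabectedin arrays from 0.02 in HLA-C to 0.82 in TAP1. HLA-B, HLA-C and HLA-G combined a group difference of 0.23 to 0.28 with distances of 0.02 to 0.16 within the groups. The margin by which the lower trabectedin array exceeded the higher control array was 0.17 in HLA-B, 0.16 in HLA-C, 0.15 in HLA-E, 0.18 in HLA-G and 0.04 in TAPBP.

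**Figure D3:**
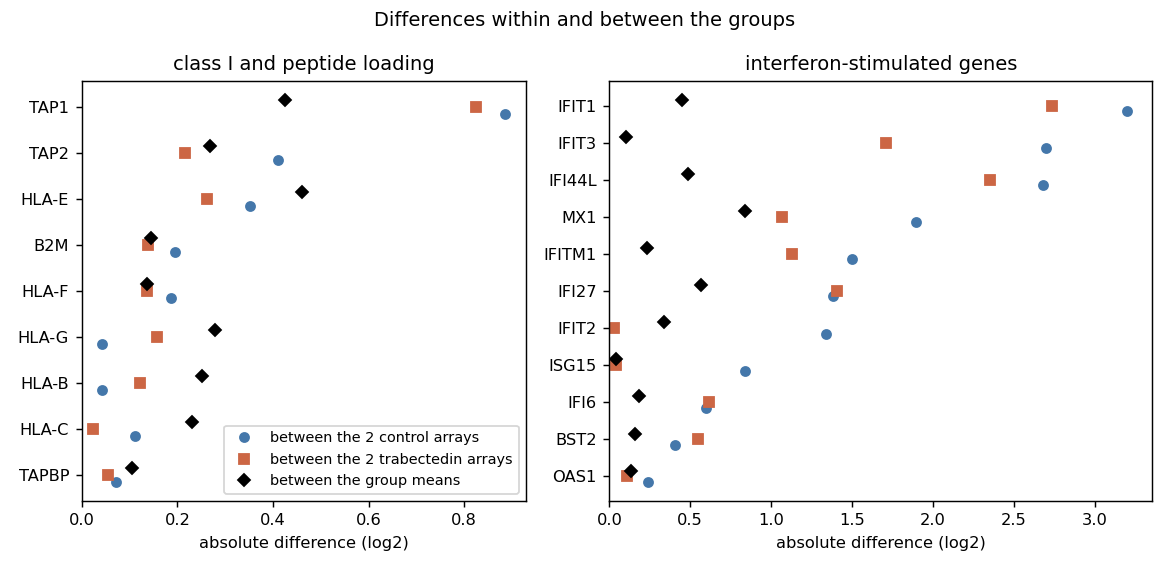
Absolute log2 difference (x axis) between the 2 control arrays (blue circles), between the 2 trabectedin arrays (orange squares) and between the group means (black diamonds), for the 9 class I and loading genes (left) and for 11 interferon-stimulated genes (right, wider axis). Black diamonds lie right of both other symbols in HLA-B, HLA-C, HLA-E, HLA-G and TAPBP, and in none of the interferon-stimulated genes.

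Class I and loading genes are known targets of interferon, and most of 11 interferon-stimulated genes differed between arrays of 1 group, by up to 3.20 in IFIT1. By the larger of its distances in the groups, OAS1 differed least, at 0.24 in control and 0.11 with trabectedin. Between the trabectedin arrays alone, ISG15 and IFIT2 differed by less, 0.04 and 0.03, but by 0.84 and 1.34 in control. In all 11 the larger distance between arrays of 1 group exceeded the difference between the groups, and the median log2 difference of replicate 2 minus replicate 1 was 1.38 in control and 1.07 with trabectedin. IFIT1, an antiviral RNA-binding protein, had log2 values of 4.74 and 7.93 in control and of 5.42 and 8.16 with trabectedin. The interferon-stimulated genes MX1 and IFIT2 had the highest and the lowest log2 fold change of this list, 0.84 (standard error 0.71) and -0.34 (standard error 0.45), with adjusted p = 0.629 and 0.744. The arrays with low IFIT1 were the ones with low TAP1, and the part of an interferon response in the values of TAP1 was not tested.

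The steps before and after loading were read from lists of known genes, each gene by its cluster with the highest mean. Of 81 listed genes in 11 lists, 76 had a cluster with 1 symbol, and the others were not analysed here. None of the 76 passed the test, which left the replicate number out, whereas 9 passed with that number as a block and 6 after scaling to ribosomal protein genes. Of all 23781 clusters, the block called 570 higher and 937 lower, and the scaling called 10 higher and 1028 lower. A higher mean with trabectedin was measured in 50 of them, with a median log2 fold change of 0.11, next to 0.10 over all clusters, and in 14 after scaling to ribosomal protein genes. By at least 1.5-fold, 2 of 76 were higher and 7 lower, against 2.8% and 4.44% of all clusters. Both trabectedin arrays were above both controls in 23 of 76 and below them in 13, against 36.2% and 13% of all clusters.

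Immunoproteasome genes, which encode the catalytic subunits and the activator that favour peptides for class I, were higher in mean in 5 of 5 cases, and in 3 of 5 after scaling to ribosomal protein genes, while 71.6% of all clusters were higher in mean. The median was 0.36, and 3 of 5 were without overlap, against 36.2% of all clusters. PSME2, a subunit of the PA28 activator, measured 11.95 and 11.99 in control and 12.49 and 12.43 with trabectedin, for a log2 fold change of 0.49 (adjusted p = 0.169, standard error 0.11). PSMB9, a catalytic subunit encoded next to TAP1, had the lowest value of the list at 0.05 (adjusted p = 0.944, standard error 0.28). PSMB9 resembled TAP1 in the spread between arrays, with 7.72 and 8.38 in control and 7.86 and 8.34 with trabectedin. The 3 constitutive catalytic subunits, which those of the immunoproteasome replace, ran from -0.01 for PSMB7 to 0.17 for PSMB5, all with overlap. Of 6 peptide trimming enzymes, 4 had a higher mean, from -0.04 for the cytosolic peptidase TPP2 to 0.55 for the aminopeptidase LAP3, whose groups overlapped, and 1 had after scaling to ribosomal protein genes.

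ER folding and loading factors stood on the other side of 0 under each scaling, with a lower mean in 6 of 6 genes, while 71.6% of all clusters had a higher mean. The median log2 fold change was -0.43, and 3 of 6 were lower without overlap, against 13% of all clusters. CALR and PDIA3, the chaperone calreticulin and the oxidoreductase ERp57, form the peptide loading complex with TAPBP and the transporter, and were named here after their values were seen. CALR measured 16.25 and 16.39 in control and 15.81 and 16.02 with trabectedin, apart between the groups, for a log2 fold change of -0.41 (adjusted p = 0.296, standard error 0.13). PDIA3 had -0.45 (adjusted p = 0.797, standard error 0.77), with control arrays at 12.23 and 13.81, and ran from -1.33 to 0.42 when 1 array was left out. The lowest of this list was HSPA5, the general ER chaperone BiP, at -0.69 (adjusted p = 0.567, standard error 0.47), with overlapping groups and a range from -1.20 to -0.17 without 1 array. CANX, the membrane chaperone calnexin that receives new heavy chains, was nearest to 0, at -0.04 (standard error 0.10). It was nevertheless among the 3 without overlap.

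Among genes for cleavage of leader peptides, export and turnover of class I, 4 of 6 had a higher mean (1 of 6 after scaling to ribosomal protein genes) and the list held the most negative value of all 76 genes. WWP2, a ubiquitin ligase known to work with SUSD6 and TMEM127 in removing class I molecules from the cell surface, measured 10.21 and 10.44 in control and 7.91 and 9.20 with trabectedin. This was 3.41-fold lower, with a log2 fold change of -1.77 (adjusted p = 0.20, standard error 0.44) and no overlap. Without trabectedin replicate 1 it was -1.12, and without trabectedin replicate 2 it was -2.41 and passed the test (limma adjusted p = 0.0201), as it did after scaling to ribosomal protein genes (adjusted p = 0.000216). Its partners, named for that role after their values were seen, lay at -0.54 for SUSD6, without overlap, and at 0.08 for TMEM127. MARCHF9, another ubiquitin ligase that acts on class I, was the highest of the list at 0.70 (adjusted p = 0.437, standard error 0.33), with 7.46 and 7.04 in control and 8.39 and 7.52 with trabectedin, and its groups did not overlap. Without trabectedin replicate 1 it was 0.27, without trabectedin replicate 2 it was 1.14, and without control replicate 2 it was 0.50, so that single arrays decided whether MARCHF9 reached 1.5-fold.

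**Figure D4:**
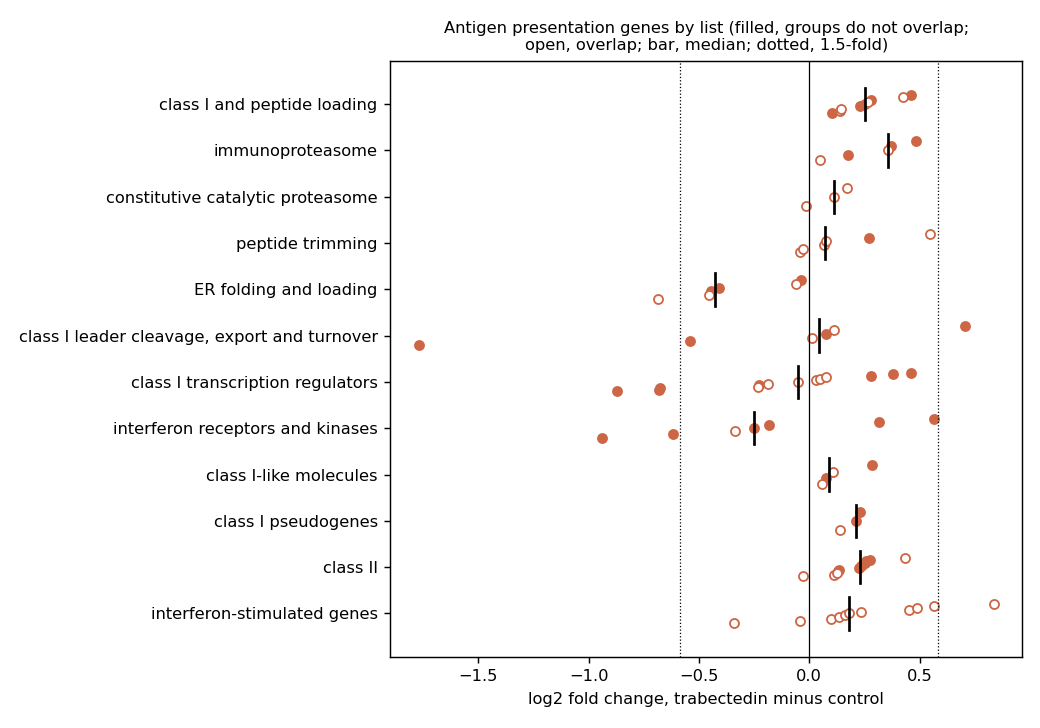
Log2 fold change, trabectedin minus control (x axis), of each measured gene in the class I set (primary cluster) and in 11 lists of related genes (y axis, cluster with the highest mean). Filled circles are genes whose groups do not overlap, open circles those that overlap, black bars list medians and dotted lines 1.5-fold. The class I set and the immunoproteasome lie right of 0, ER folding and loading lies left of it, and WWP2 at -1.77 is the farthest point.

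The factors that bind or activate class I promoters were on both sides of 0, with 6 of 13 above it, 2 of 13 after scaling to ribosomal protein genes, and a median of -0.05. RELA, the NF-κB subunit that activates transcription from κB and enhancer A sites, had the highest value at 0.46 (adjusted p = 0.221, standard error 0.12), with 10.55 and 10.50 in control and 11.08 and 10.89 with trabectedin. NFKB1, which encodes the p105 precursor of its partner p50, was lower at 8.22 and 8.42 with trabectedin against 8.95 and 9.06 in control (log2 fold change -0.68, standard error 0.13, adjusted p = 0.135). IRF2, an interferon regulatory factor that binds the ISRE, went from 10.55 and 10.44 in control to 9.41 and 9.85, a difference of -0.87 (adjusted p = 0.160, standard error 0.18). CIITA, the transactivator of class II genes that can also act on class I promoters, measured 8.46 and 8.20 in control and 7.82 and 7.48 with trabectedin (-0.68, standard error 0.17, adjusted p = 0.213). NLRC5, the class I transactivator, was looked up after its values were seen and had -0.19 (adjusted p = 0.641, standard error 0.16), with overlapping groups. None of these 5 genes passed the test as made here, whereas after scaling to ribosomal protein genes NFKB1, IRF2 and CIITA did (limma adjusted p = 0.0152, 0.00565 and 0.0416). That scaling called 1028 of all 23781 clusters lower.

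Interferon receptors and their kinases had a median of -0.25, with 2 of 7 above 0 under each scaling. JAK1, the kinase shared by type I and type II interferon receptors, measured 11.12 and 10.85 in control and 10.21 and 9.88 with trabectedin, 1.92-fold lower (log2 fold change -0.94, standard error 0.17, adjusted p = 0.132). JAK2, its partner at the interferon-γ receptor, had 8.01 and 8.09 in control and 7.29 and 7.58 with trabectedin (-0.62, standard error 0.14, adjusted p = 0.179). IFNGR1, the ligand-binding chain of that receptor, was higher at 8.83 and 8.94 against 8.12 and 8.53 in control (0.56, standard error 0.17, adjusted p = 0.269). All 3 were without overlap of the groups. JAK1 and JAK2 passed the test after scaling to ribosomal protein genes (limma adjusted p = 0.00794 and 0.0255), which called 1028 of all 23781 clusters lower.

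Other genes of the MHC and relatives of class I had small differences too, and after scaling to ribosomal protein genes all 7 class I-like genes and pseudogenes and 10 of the 12 class II genes turned from positive to negative. All 4 class I-like genes had a higher mean, from 0.06 for HFE, a regulator of iron uptake, to 0.28 for MR1, which presents vitamin metabolites, and all 3 class I pseudogenes did so, from 0.14 for HLA-L to 0.23 for HLA-H. Class II genes, which present peptides to CD4+ T cells, were higher in mean in 11 of 12 cases and without overlap in 8 of 12, with a median of 0.23, against 71.6% and 36.2% of all clusters. The highest was HLA-DMA, the class II peptide exchange factor, at 0.44 (adjusted p = 0.679, standard error 0.44), whose arrays of 1 group differed by 0.90 and 0.96. The lowest was HLA-DQB1 at -0.03 (standard error 0.23).

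Markers of plasma cells were measured with values from 6.14 to 17.53, and among them JCHAIN, the joining chain of secreted immunoglobulin, had values from 17.34 to 17.53, whereas markers of T and NK cells lay between 3.73 and 6.00, those of monocytes reached at most 4.79 and those of B cells between 4.20 and 5.16, around or below the median over all features, which was 5.19 and 5.28 in the control arrays and 5.33 and 5.37 in the trabectedin arrays. Of the 9 plasma cell markers, 4 had a higher mean with trabectedin, against 71.6% of all clusters. With quantile normalization repeated 2 of 9 had, and after scaling to ribosomal protein genes 1 of 9. The highest was the surface receptor SLAMF7 at 0.30 (standard error 0.62), with overlapping groups. Only CD38 was higher without overlap, at 0.18, against 36.2% of all clusters. Lower without overlap were 3, against 13% of all clusters, namely SDC1 at -0.47 and the transcription factors XBP1 at -0.78 and IRF4 at -0.80 (adjusted p = 0.434, 0.179 and 0.428).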

How the data were processed

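RNA of 2 control and 2 trabectedin samples was read on Affymetrix arrays. By the deposited notes, the authors summarised the probes as log2 values with RMA in Expression Console, that is with background correction and quantile normalization. For software version, annotation and array build, the sources used here give nothing. The highest value of an array ran from 19.68 to 19.90, and how this scale was set is not stated. A fold given here is thus a fold on the deposited scale. The labels name TRIzol for RNA extraction, the methods columns. Precision is limited by the number of arrays.

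Gene symbols are those of the platform annotation. Of 70523 features, 23781 had 1 symbol and were tested, while 1543 had several and 45199 had none. Groups, taken from the sample titles, were tested two-sided in limma 3.58.1 (lmFit and eBayes, no block; R 4.3.3, package data.table in version 1.17.8), with Benjamini-Hochberg adjustment over all 23781 clusters. Intervals are 95% limma intervals, a fold is 2 to the power of the log2 difference, and groups do not overlap where every array of one exceeds every array of the other. The fit was tested on simulated data with no replicate effect and with known changes larger than any in the class I set. It does not show whether differences as small as those of the set would be found.

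All 9 genes are named, by their primary chromosome cluster. Of the 11 lists of related genes, those past the test or, as none passed, those of at least 1.5-fold without overlap are named, with the highest and the lowest of each list, and others only where said. The members, lists and comparisons were chosen with earlier results of these data known. Promoters are those of RefSeq on GRCh38.p14.

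Alternatives were to leave out each array, to set the replicate number as a block, to test all features, 1 cluster a gene or only clusters over the median level, to repeat quantile normalization, to scale by ribosomal protein genes, to fit a variance trend, to use the methods' t-test, and to ask for a 2-fold difference.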

Additional observations from a re-analysis of the deposited data

How the results depend on the processing

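No alternative brought any of the 56 clusters past the test. The methods take the cells from 2 experiments but do not say that a replicate number marks one, so the block was kept as an alternative. The difference of replicate 2 minus replicate 1 correlated between the groups at 0.559 over all clusters. With the replicate number as a block, limma called 570 clusters higher and 937 lower, while the lowest adjusted p in the class I set was 0.0637, for HLA-E. Of the 76 related genes, 9 then passed, namely WWP2, JAK1, IRF2, HSPA5, NFKB1, CIITA, JAK2, SUSD6 and IFI27.

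Without 1 array at a time, 0 to 15 class I clusters reached 1.5-fold, 15 (7 of HLA-E and 8 of TAP1) without control replicate 2 and 11 without trabectedin replicate 1. Of the related genes, 0 to 1 passed the test, 2 to 9 were higher and 5 to 11 lower by at least 1.5-fold. Of the genes given in the text, the log2 fold change then crossed 0 in TAP1 (-0.017 to 0.87), PSMB9 (-0.28 to 0.38), PSMB7 (-0.081 to 0.055), TPP2 (-0.27 to 0.19), PDIA3 (-1.33 to 0.42), NLRC5 (-0.38 to 0.0083), HFE (-0.022 to 0.14), HLA-DMA (-0.043 to 0.92), HLA-DQB1 (-0.33 to 0.28), MX1 (-0.11 to 1.78), IFI27 (-0.14 to 1.27), IFIT1 (-1.15 to 2.05), IFIT2 (-1.01 to 0.33), ISG15 (-0.46 to 0.38), SLAMF7 (-0.49 to 1.10) and JCHAIN (-0.059 to 0.13). Over all clusters, 5 were called higher and 209 lower without trabectedin replicate 2.

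Scaling to ribosomal protein genes moved the median of all clusters to -0.20, with 10 called higher and 1028 lower, and left 24 of 56 class I clusters positive. HLA-B went to -0.044, HLA-C to -0.065, HLA-F to -0.16, HLA-G to -0.017, B2M to -0.15, TAP2 to -0.027 and TAPBP to -0.19. PSMB9 went to -0.25, PSMB5 to -0.12, MR1 to -0.011, HFE to -0.24, HLA-H to -0.066 and HLA-L to -0.15. Of the related genes, 6 passed the test, 0 were higher and 13 lower by 1.5-fold. With quantile normalization repeated, the median was 0.03, 55 of 56 class I clusters were positive and HFE went to -0.040. At a 2-fold threshold 0 related genes were higher and 1 was lower. By the methods' t-test, 6 class I clusters, all of HLA-G, were at the study's threshold (1506 higher and 1001 lower of all 23781 clusters) and 0 after Benjamini-Hochberg adjustment. Testing all features, 1 cluster a gene, clusters above the median level or a mean-variance trend turned no sign among the named genes and changed no call. The cause of these shifts was not tested beyond what each alternative changes.

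Expression was read on 2 arrays a group. The limma intervals reached 0 in all 9 primary clusters and lay above it in the 6 alternate clusters of HLA-G and, among others, in PSME2 and PSME1. A scaling or a single array can turn the sign of a small difference. The signal over background of a probe is not part of these values.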
